A study of Mus musculus with 24 samples.

Results

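The effect of losing Prkar1a on the mouse adrenal gland was compared between females and intact males. The quantity is a difference of differences on the log2 scale: knockout (KO) minus control (WT) in females, less KO minus WT in intact males. A positive value means that the knockout effect was the higher one in females, and a negative value that it was the lower one. It was computed from 16 of the 24 arrays of the series, 4 each of WT females, KO females, WT intact males and KO intact males. The 8 arrays of gonadectomised males entered the filter on dim genes and 1 alternative fit.

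RNA came from whole glands of mice aged 7 months, whose background mixed C57Bl/6 with sv129. KO mice of both sexes were Prkar1afl/fl with 1 copy of Cre in the Cyp11b2 locus and mTmG/mTmG, a reporter of Cre activity that all 16 mice carried. The labelled WT groups were not alike. WT females were Prkar1afl/+ with 1 copy of Cre, whereas WT intact males were Prkar1afl/fl without Cre. The labels call the mice of a group biological replicates. Sex and control genotype cannot be told apart in any comparison of the sexes here that uses the WT groups, the difference of knockout effects included. The labels do not say at what time of day the glands were taken or which arrays were scanned together. Because the gland was taken whole, fewer cells of a type and less RNA per cell cannot be told apart either. The arrays held adrenal RNA: Star, the cholesterol carrier of steroid cells, had group means of 13.03, 13.15, 13.03 and 13.04 in WT and KO females and WT and KO males, and Chga, the chromogranin of chromaffin cells, had 11.86, 11.47, 12.04 and 12.29.

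Prkar1a encodes the type 1 alpha regulatory subunit of protein kinase A (PKA), which holds the catalytic subunits inactive until cAMP binds. In the adrenal cortex the cAMP and PKA pathway carries the signal of ACTH from its receptor to cholesterol supply and glucocorticoid synthesis. The outer zona glomerulosa makes aldosterone through Cyp11b2, and its cells can move inwards to become zona fasciculata, so that a recombinase in the Cyp11b2 locus can mark cells of both zones. The gland also differs by sex in mice, among others in the X-zone, an inner cortical layer that regresses in males at puberty.

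Prkar1a itself was at 8.43, 8.53, 8.54 and 8.52 (log2 signal) in the 4 WT females and at 7.30, 7.00, 7.35 and 6.67 in the KO females. It was at 8.89, 8.72, 8.75 and 8.91 in WT males and at 6.89, 8.08, 8.47 and 8.13 in KO males. Each KO array lay below each WT array of its sex, and KO male 1 stood well below the other KO males. The knockout effect was -1.43 ± 0.24 (log2 ± standard error from limma, Benjamini-Hochberg adjusted p 0.000398) in females and -0.92 ± 0.24 in males, where it did not pass the test (adjusted p 0.243). The difference of -0.50 ± 0.34 did not pass the test (adjusted p 0.35). Without KO male 1 it was -0.84 with an adjusted p of 0.00964. WT females, which carry 1 floxed allele and Cre, lay 0.31 below WT males, a difference that did not pass the test either (adjusted p 0.492). Cyp11b2, the locus of the recombinase and the aldosterone synthase gene, had a difference of -1.35 ± 0.50 (adjusted p 0.0779), from -2.30 ± 0.36 in females and -0.95 ± 0.36 in males. Its 4 WT females were at 9.71, 10.97, 11.11 and 11.04, its KO females at 8.35, 9.10, 7.47 and 8.72, its WT males at 11.79, 11.01, 11.55 and 11.54, and its KO males at 9.91, 11.09, 10.69 and 10.40. WT female 1 was apart from the other WT females, and leaving out that array, KO female 2 or KO male 1 gave adjusted p-values of 0.0229 to 0.05.

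Of 14411 genes tested, 2368 (16.4%) differed in knockout effect between the sexes at an adjusted p of 0.05. The effect was higher in females in 1034 (7.18%) and lower in females in 1334 (9.26%), and 304 of the calls were at least 2-fold, 168 higher and 136 lower. The 2 effects behind the difference were unequal in reach: 4776 genes (33.1%) changed with the knockout in females, 2004 up and 2772 down, against 18 (0.125%) in intact males, 11 up and 7 down. Among the 2368 genes the median size of the knockout effect was 0.50 in females and 0.10 in males, against 0.16 and 0.07 over all genes tested. The effect was the larger one in females in 2256 of them (95.3%, against 73.8% of all genes), and 2227 were themselves called in KO females. The signs of the 2 effects were opposite in 1457 (61.5%, against 46.2% of all genes). With 4 KO and 4 WT arrays in each sex the contrasts had the same number of arrays, and the standard error of each effect was the same for a gene by construction.

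**Figure D1:**
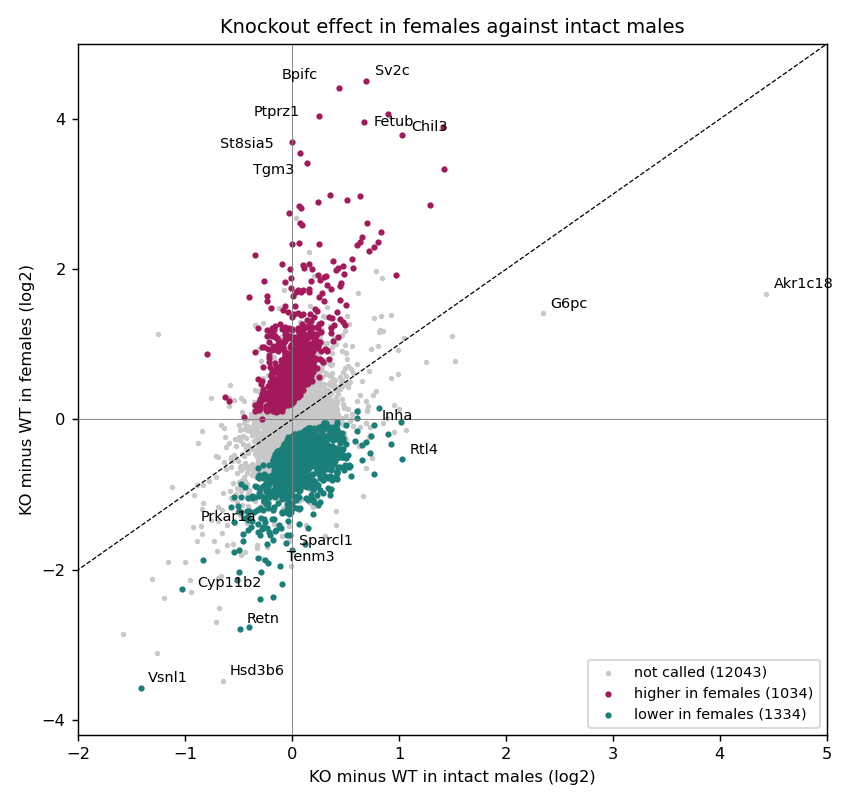
Knockout effect (KO minus WT, log2) of each of the 14411 genes in females on the vertical axis against intact males on the horizontal axis, with the dashed line where both are equal. The 1034 genes called higher in females and the 1334 called lower spread mainly along the vertical axis, and Akr1c18 and G6pc lie far to the right with no call.

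The count depended on 1 way of fitting more than on others. The mean level of 13 medulla markers was 9.43 to 9.80 in WT females, 8.79 to 9.30 in KO females, 9.48 to 10.03 in WT males and 9.95 to 10.21 in KO males, so every KO female lay below every WT array, and 3 of 4 KO males lay above every WT array. With this mean as a covariate limma called 65 genes, 49 higher and 16 lower. Of the 2368 genes, 97.3% kept the direction of their difference in that fit, at a median of 0.752 times its size, while the standard error was a median of 1.56 times as large. Of the 95 called genes described here 11 kept their call in it, namely Bpifc, Sv2c, Ptprz1, St8sia5, Tgm3, Elapor1, Vsig4, Tenm3, Sparcl1, Dab2 and Hdc. Among the 16 arrays Bpifc and Vsig4 were over the filter level of 5 in KO females only, so their calls count as no test. Without KO male 3 the count of genes lower in females was 878.

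The fitted differences were large upwards in genes that were dim or low in 3 of the groups and high in KO females. Bpifc, of the lipid-binding BPI fold family, was at 3.86, 3.97, 3.80 and 4.15 in WT females, 8.76, 8.03, 8.03 and 8.64 in KO females, 3.72, 3.69, 3.89 and 3.95 in WT males and 4.78, 3.89, 3.96 and 4.38 in KO males. The KO females were the only arrays of the 16 over the filter level of 5, so among them the gene passed the filter only through the group where it was high. Its fitted difference of 3.98 is therefore given as a description, with no fold and no test. Sv2c, a synaptic vesicle glycoprotein gene, was at 5.16, 5.07, 5.35 and 5.21 in WT females, 10.73, 9.62, 8.90 and 9.57 in KO females, 5.32, 5.45, 5.31 and 5.26 in WT males and 6.38, 5.04, 5.87 and 6.81 in KO males. In males, 3 KO arrays lay above all WT males, yet no KO male reached a KO female, and the difference was 3.82 ± 0.48 (adjusted p 0.00027). Tgm3, a transglutaminase that cross-links proteins in skin, was at 5.14, 5.30, 5.16 and 5.38 in WT females, 8.93, 8.84, 8.13 and 8.72 in KO females, 4.53, 4.97, 5.13 and 5.16 in WT males and 5.11, 5.16, 4.87 and 5.20 in KO males. The male groups overlapped, with an effect of 0.14 ± 0.16 there, and the difference was 3.27 ± 0.23 (adjusted p 1.63e-06).

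The same shape was seen in Ptprz1, a receptor tyrosine phosphatase gene (3.79 ± 0.53), Spink8, a Kazal-type protease inhibitor (3.48 ± 0.63), Elapor1 (2.78 ± 0.27) and Aass, an enzyme of lysine breakdown (2.74 ± 0.32). Olfr810, an olfactory receptor gene, differed by 3.18 ± 0.68. Genes known from macrophages belong to the group, Vsig4, a complement receptor (2.78 ± 0.33), and Chil3, a chitinase-like secreted protein (2.76 ± 0.67). Fetub, the protease inhibitor fetuin-B (3.28 ± 0.44), was also higher in females than in males in WT, by 1.81, and by 5.10 in KO. Adjusted p-values of Ptprz1, Elapor1 and Fetub were 5.15e-05 to 0.000513. Vsig4, as Bpifc, was over the filter level in KO females only, so its value is a description with no test. Spink8 and Olfr810 were under that level in all WT arrays of both sexes and over it in 1 KO male each. Aass was under that level in every male and in all WT females but WT female 4 (5.26). Chil3 was under it in all WT males and in all KO males but KO male 1 (6.14). Among WT females only replicate 2 (5.83) had Chil3 over it. The values of Spink8, Olfr810, Aass and Chil3 are therefore descriptions with no test too. The sizes of the differences of these genes, of Bpifc and of Vsig4, and their order, are not measurable.

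St8sia5, which adds sialic acid to gangliosides, had another pattern. It was at 4.94, 4.24, 5.03 and 5.02 in WT females, 9.55, 7.93, 7.71 and 8.80 in KO females, 7.75, 7.59, 6.95 and 7.81 in WT males and 7.25, 7.69, 7.35 and 7.82 in KO males. WT females were the low group, and KO females overlapped with both male groups at the lower end. The difference was 3.69 ± 0.46 (adjusted p 0.00027), while its second, dimmer probe set differed by 0.36 ± 0.11. The sex difference (female minus male) thus went from -2.72 in WT to 0.97 in KO. Among the 2368 genes the sex difference was larger in KO than in WT in 2102 (88.8%, against 69.3% of all genes), and it was called in KO only in 1964 and in WT only in 103. Over all 14411 genes tested the sex difference was called in 5952 in KO and in 1102 in WT. The difference of knockout effects is the sex difference in KO less that in WT, so these counts are partly set by how the 2368 genes were selected. In 174 of the 2368 the sex difference was called in both genotypes, 52 of them with opposite signs. Of these 52, Megf10, an engulfment receptor, went from -1.80 to 0.86, Rhcg, an ammonia transporter, from -1.37 to 1.04 and Paqr5, a membrane progestin receptor, from -1.16 to 0.71. In all 3 the KO effect was larger in females, by 2.66 ± 0.44, 2.41 ± 0.35 and 1.87 ± 0.36 (adjusted p 0.00155, 0.00074 and 0.00348).

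Among the genes lower in females, Tenm3, a teneurin of cell adhesion, was at 7.58, 7.24, 7.21 and 7.04 in WT females, 5.53, 5.09, 5.38 and 5.25 in KO females, 5.90, 6.16, 6.02 and 6.44 in WT males and 5.77, 6.04, 6.14 and 6.11 in KO males. WT females were the highest group and KO females the lowest, with both male groups between them and overlapping. Its difference was -1.84 ± 0.19 (adjusted p 7.28e-05), and the sex difference went from 1.14 in WT to -0.70 in KO. Sparcl1, a secreted matrix glycoprotein related to SPARC, was at 9.68, 9.65, 9.80 and 9.54 in WT females, 7.96, 7.89, 8.10 and 7.75 in KO females, 9.04, 9.47, 9.29 and 8.96 in WT males and 9.22, 8.99, 9.39 and 9.15 in KO males. Again only the KO females were low, and the difference was -1.74 ± 0.16 (adjusted p 2.83e-05), with a male effect of -0.01 ± 0.11. Lum, the small proteoglycan lumican, was at 7.52, 7.20, 7.13 and 6.91 in WT females, 5.28, 5.47, 5.29 and 5.21 in KO females, 6.63, 7.42, 7.16 and 6.45 in WT males and 6.58, 6.61, 7.06 and 6.39 in KO males. KO females were below all other arrays, and the difference was -1.62 ± 0.27 (adjusted p 0.0016).

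Fat cell genes were among the other large differences downwards. Lgals12, a galectin of adipocytes (-2.37 ± 0.70), Retn, the hormone resistin (-2.30 ± 0.56), Car3, a carbonic anhydrase abundant in fat (-2.09 ± 0.53), and Adipoq, adiponectin (-1.73 ± 0.45), are all members of the adipocyte marker list. Retn was at 11.04, 11.29, 11.31 and 10.42 in WT females, 8.86, 7.75, 8.32 and 7.98 in KO females, 9.39, 10.07, 10.82 and 9.34 in WT males and 10.26, 9.75, 9.41 and 8.24 in KO males. The female groups did not overlap, and the male groups did, with WT males spread over more than 1 log2 unit. Car5b, a mitochondrial carbonic anhydrase (-2.18 ± 0.59), and Klb, the co-receptor of endocrine fibroblast growth factors (-1.63 ± 0.42, adjusted p 0.0659 with all 24 arrays in the fit), differed in the same direction. Ly6d, a surface protein of the Ly6 family, differed by -2.10 ± 0.64, and Mmp2, the gelatinase that cleaves collagen, by -1.78 ± 0.49. Adjusted p-values of these 8 genes were 0.013 to 0.0363. The calls of Lgals12 and Ly6d each ended in 10 of the 16 fits that left out 1 array (adjusted p 0.0532 to 0.0657 and 0.052 to 0.0739), and that of Mmp2 without WT male 1 or KO male 3 (0.0511 and 0.0515).

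**Figure D2:**
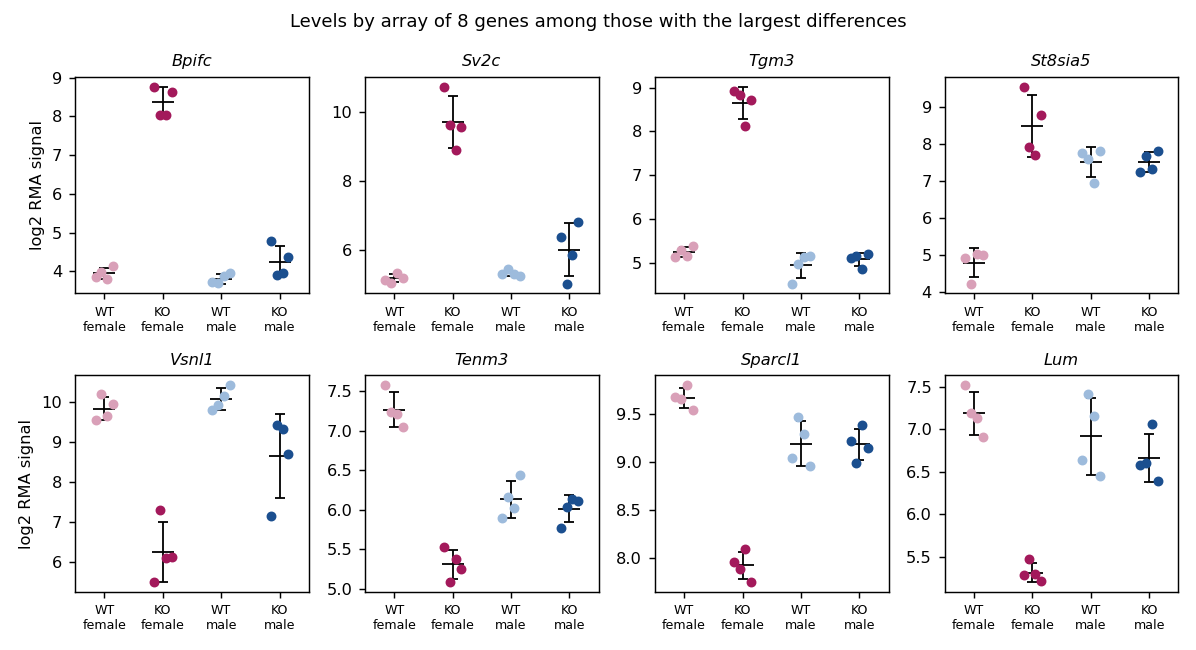
Log2 signal of each array (points) with the group mean and SD (bars) for 4 genes among the 12 with the largest differences upwards and 4 among the 12 downwards. In Bpifc, Sv2c and Tgm3 the KO females alone are high, in Sparcl1 and Lum they alone are low, and in St8sia5 and Tenm3 the WT females stand on the far side of the male groups.

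The promoters of the leading genes were read for the sites that cAMP and sterol signalling use, since the knockout removes a brake of PKA. The cAMP response element (CRE) was taken as TGACGTCA, its half-site as TGACG and the sterol response element as TCACNCCAC, each on either strand, in the 250 bases before the transcription start (RefSeq, GRCm38.p6). Of the 24 genes with the largest differences, 15 had a promoter in the table, 1 of them (Tenm3) with the CRE and 5 with the half-site. Tenm3 and Prkar1a carry the CRE, Tgm3 and Fetub the half-site (which also lies within every full CRE), and Hmgcs1 carries the sterol element, alone among the 13 of 16 cholesterol enzymes described below that had a promoter in the table. Capitals mark the motif, and 20 bases are shown on each side. The windows are chr11:109650880-109650927 (plus strand) for Prkar1a, chr8:48674726-48674773 (minus strand) for Tenm3, chr2:130012189-130012233 (plus strand) for Tgm3, chr16:22920096-22920140 (plus strand) for Fetub and chr13:119690194-119690242 (plus strand) for Hmgcs1.
Prkar1a: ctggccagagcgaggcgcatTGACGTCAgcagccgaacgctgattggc
Tenm3: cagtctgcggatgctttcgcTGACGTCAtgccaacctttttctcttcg
Tgm3: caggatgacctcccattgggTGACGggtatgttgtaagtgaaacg
Fetub: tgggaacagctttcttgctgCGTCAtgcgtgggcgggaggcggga
Hmgcs1: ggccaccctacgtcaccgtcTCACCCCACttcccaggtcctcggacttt

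Over all called genes the shares of promoters with a motif were mostly close to those of all genes tested. The CRE was found in 1.55% of promoters of genes higher in females and 2.33% of those lower in females, against 2.36% of promoters of all genes tested and 1.55% of the 32851 promoters of the table. The half-site was found in 25.4% and 22.3%, against 24.7% of genes tested and 17.8% of the table. The steroid receptor half-site TGTTCT was found in 12.4% and 11.8%, against 11.2% and 16.1%. The sterol element was found in 1.74% and 0.601%, against 0.992% and 1.05%. These shares are descriptions with no test, and a window without a motif says only that these letters are not in it.

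Genes of the cAMP and PKA pathway were called in a few members and in both directions. Over all genes tested 7.18% were called higher and 9.26% lower in females. Of 7 PKA subunits and inhibitors tested, 2 had a higher and 1 a lower effect in females, with a list median of -0.09 beside -0.01 for all genes. Prkar1b, a regulatory subunit mostly known from brain, was lower (-0.67 ± 0.15, adjusted p 0.00784), from -0.59 in females and 0.08 in males. Prkaca, the main catalytic subunit (0.35 ± 0.10, adjusted p 0.028), and Prkar2a, a type 2 regulatory subunit (0.33 ± 0.11, adjusted p 0.0484), were higher, but their calls ended in 6 and 14 of the 16 fits without 1 array (adjusted p 0.0504 to 0.0591 and 0.0531 to 0.0954). Of 20 adenylyl cyclases and phosphodiesterases, which make and degrade cAMP, 4 were lower and 1 was higher in females (median -0.28). The cyclases Adcy6 (-1.04 ± 0.16, adjusted p 0.00108) and Adcy2 (-0.70 ± 0.13, adjusted p 0.00366) and the phosphodiesterase Pde2a (-0.65 ± 0.16, adjusted p 0.0123) were lower, and Pde8a, a phosphodiesterase of steroidogenic cells, was higher (0.71 ± 0.15, adjusted p 0.00603). The fourth lower gene was Pde3a (-0.53 ± 0.15, adjusted p 0.0275), whose call ended in 5 of the 16 fits (0.0539 to 0.0585). Of 18 targets of the cAMP-activated factor CREB and immediate early genes, Nr4a3, an orphan nuclear receptor, was lower (-0.82 ± 0.12, adjusted p 0.000641) and Ier3 was higher (0.67 ± 0.18, adjusted p 0.0173, or 0.0931 with all 24 arrays), with a median of 0.16. Nr4a1, of the same family, was at -1.26 ± 0.44 (adjusted p 0.0622, or 0.0129 without WT male 4), and the kinase gene Sik1 at 0.90 ± 0.31 (adjusted p 0.0556, or 0.0113 and 0.0458 without WT male 3 or KO male 1).

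Enzymes of cholesterol synthesis differed as a block. Of 16 tested, 15 had a higher knockout effect in females and none a lower one, beside 7.18% and 9.26% of all genes. The median difference was 1.02. All 16 rose with the knockout in females (median effect 1.42), whereas in males the median was 0.39 with 0 of 16 called by limma. The mean level of the list was 7.95 to 8.21 in WT females, 9.52 to 9.83 in KO females, 7.78 to 8.31 in WT males and 7.97 to 8.75 in KO males. KO and WT thus overlapped in males and not in females. Sqle, squalene epoxidase, was at 7.23, 7.57, 7.64 and 7.75 in WT females, 9.98, 10.07, 10.02 and 10.10 in KO females, 8.03, 8.01, 7.35 and 7.08 in WT males and 8.97, 7.74, 8.35 and 8.75 in KO males. The KO females lay in a narrow band above all other arrays, while 3 of 4 KO males were above every WT male and KO male 2 was among them. The difference was 1.66 ± 0.34 (adjusted p 0.00497). Hsd17b7, which acts late in the pathway (1.77 ± 0.35), Lss, lanosterol synthase (1.58 ± 0.30), and Dhcr7, of the last step (0.96 ± 0.12), followed it with adjusted p-values of 0.000249 to 0.00426. Fdps, farnesyl diphosphate synthase, differed by 1.72 ± 0.48 (adjusted p 0.0253), a call that ended without WT female 1, WT male 1 or KO male 3 (0.0512 to 0.0546). Hmgcs1, the synthase before the rate-limiting reductase, was the exception at 0.86 ± 0.30 (adjusted p 0.0605), and it was called without WT male 4, KO male 1 or KO male 4 (0.0239 to 0.0493). It is also the enzyme whose promoter window holds the sterol element, found in 1 of 16 promoters of these enzymes (6.25%) against 1.05% of all promoters. Without 1 array the count was 13 to 16, and with the medulla covariate the median difference was 0.85 with 0 members called.

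Of 11 genes that take up, store or sense cholesterol 1 was higher in females, beside 7.18% of all genes. It was Scarb1, the receptor for high-density lipoprotein cholesterol (0.76 ± 0.10, adjusted p 0.00027). It was at 11.79, 11.77, 11.74 and 11.81 in WT females, 12.77, 12.78, 12.54 and 12.77 in KO females, 12.08, 12.12, 11.93 and 12.06 in WT males and 12.35, 12.19, 12.14 and 12.21 in KO males. The groups of neither sex overlapped, but the step was larger in females. Of 11 genes of the steroidogenic core, 2 were higher in females (median 0.02), beside the same 7.18% of all genes. Mrap, the accessory protein that brings the ACTH receptor to the cell surface, differed by 1.11 ± 0.15 (adjusted p 0.000366), from 1.21 in females and 0.10 in males. Fdx1, the electron donor of mitochondrial steroid hydroxylases, differed by 0.76 ± 0.15 (adjusted p 0.00366), from 1.25 and 0.49. Cyp11a1, the enzyme that begins steroid synthesis, was at 0.15 ± 0.06 (adjusted p 0.119), and Star was at 0.11 ± 0.07 (adjusted p 0.34).

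Of 5 genes of adrenal androgen synthesis, Cyp17a1, the enzyme that mouse adrenals largely lack after birth (1.37 ± 0.33, adjusted p 0.0115), and Cyb5a, its cofactor (1.03 ± 0.17, adjusted p 0.00161), were higher in females. Among all genes tested 7.18% were called higher in females. Cyp17a1 was at 4.03, 3.98, 4.50 and 4.40 in WT females and 5.70, 5.64, 5.43 and 4.92 in KO females. In males the order was mixed, with 4.73, 5.21, 4.76 and 5.37 in WT and 5.55, 4.54, 4.82 and 4.48 in KO. These levels lie near or under the filter level, and fitted with all 24 arrays the adjusted p was 0.269. Hsd17b3, which makes testosterone, was at 1.22 ± 0.45 (adjusted p 0.0741, or 0.00851 without KO female 2).

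Genes of the zona glomerulosa went the other way. Of 11 tested, 8 had a lower knockout effect in females and none a higher one, beside 9.26% and 7.18% of all genes. The list median was -0.90. Vsnl1, a calcium sensor, was at 9.53, 10.19, 9.64 and 9.94 in WT females, 5.50, 7.28, 6.11 and 6.11 in KO females, 9.78, 9.91, 10.15 and 10.41 in WT males and 7.16, 9.41, 9.33 and 8.68 in KO males. KO arrays lay below WT arrays in both sexes, by 3.57 in females and 1.42 in males, and KO male 1 overlapped with the KO females. The difference was -2.16 ± 0.60 (adjusted p 0.0233). Kcnk9, a potassium channel of glomerulosa cells (-1.52 ± 0.42, adjusted p 0.0234), Cacna1h, a calcium channel (-1.16 ± 0.19, adjusted p 0.00162), Dab2, an endocytic adaptor (-0.90 ± 0.11, adjusted p 0.00027), and Agtr1a, the angiotensin receptor (-0.80 ± 0.16, adjusted p 0.00389), were lower too. Hsd3b6, a 3 beta-hydroxysteroid dehydrogenase, had the largest value of the list and no call (-2.83 ± 0.94, adjusted p 0.0523), with KO males spread from 7.78 to 11.67, and it was called without KO female 1, KO female 2, WT male 4 or KO male 4 (0.0216 to 0.0479). Without KO male 3 the count was 5, with Vsnl1 and Kcnk9 no longer called (0.0523 and 0.0515).

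**Figure D3:**
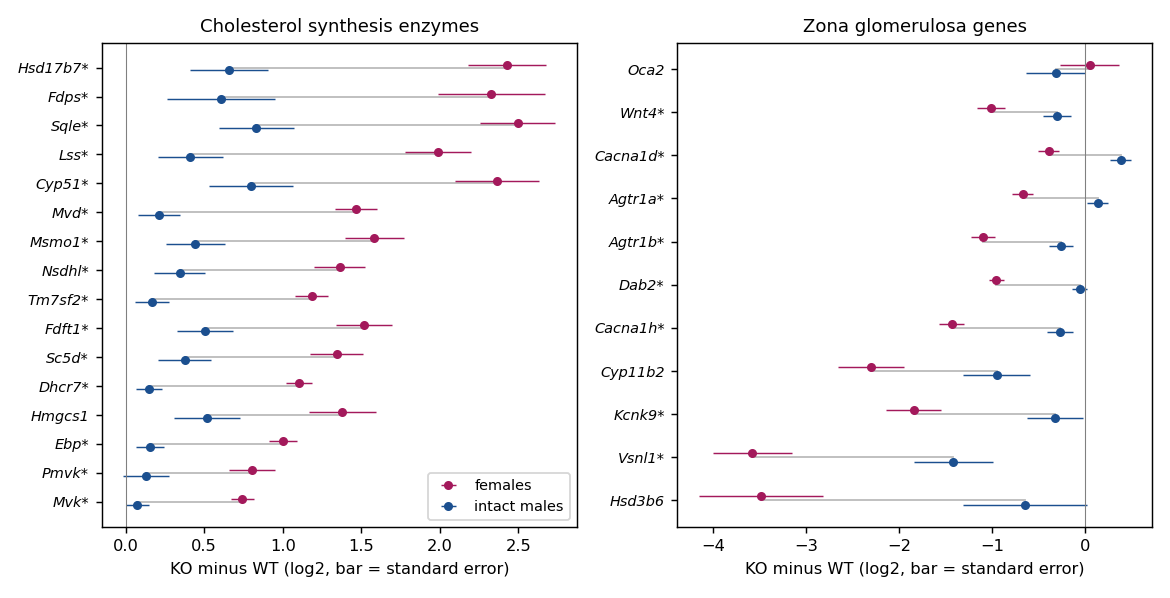
Knockout effect (log2, KO minus WT, bars are standard errors) in females and in intact males for each of 16 cholesterol synthesis enzymes and 11 zona glomerulosa genes, with an asterisk where the difference between the sexes was called. The enzymes lie right of 0 in both sexes and further right in females, and the glomerulosa genes lie left of 0 in females, apart from Oca2, with smaller or no shifts in males.

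The signals of the capsule and outer cortex followed the glomerulosa. Of 13 genes of the canonical WNT pathway, 6 were lower in females (median -0.31), beside 9.26% of all genes. Rspo3, the R-spondin that the capsule secretes to enhance WNT signalling, was at 8.95, 8.62, 8.86 and 9.03 in WT females, 7.69, 7.62, 7.61 and 7.6 in KO females, 9.16, 9.46, 9.36 and 9.0 in WT males and 9.21, 9.23, 9.46 and 9.04 in KO males. KO females lay together below all others, the male groups overlapped, and the difference was -1.22 ± 0.15 (adjusted p 0.00027). Lgr5, a receptor of R-spondins, differed by -1.12 ± 0.26 (adjusted p 0.00967), with -0.70 in females and 0.42 in males. Axin2, a target of the pathway, differed by -0.63 ± 0.15 (adjusted p 0.00967), while its second, dimmer probe set was at 0.22 ± 0.11 and the mean of both gave an adjusted p of 0.163. Sfrp1, a secreted WNT antagonist, had a value in the other direction, 0.62 ± 0.23 (adjusted p 0.0806), which was called without WT male 4 (0.0187), with array weights (0.0411) and with the adipocyte covariate (0.0149). The count of genes lower in this list was 3 without KO male 2.

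Of 10 genes of hedgehog signalling and capsule progenitors, 6 were lower in females (median -0.53), beside 9.26% of all genes. Pdgfra, the growth factor receptor of mesenchymal cells (-1.36 ± 0.24, adjusted p 0.0023), Tcf21, a transcription factor of capsule progenitors (-0.91 ± 0.24, adjusted p 0.0173), and Ptch1, the hedgehog receptor and target (-0.72 ± 0.12, adjusted p 0.00185), had male effects of 0.26, 0.10 and 0.05. Of 15 extracellular matrix genes, 7 were lower and 3 higher in females (median -0.46), beside 9.26% and 7.18% of all genes. Besides Lum and Mmp2 the lower ones included Col3a1, a fibrillar collagen (-1.16 ± 0.19, adjusted p 0.00159, or 0.293 with all 24 arrays in the fit), and Postn, periostin (-1.06 ± 0.20, adjusted p 0.00333). The higher ones were Col5a1 (0.56 ± 0.10), Col6a1 (0.52 ± 0.11) and Sparc (0.30 ± 0.10), with adjusted p-values of 0.00272, 0.0076 and 0.0496. With all 24 arrays the adjusted p of Col6a1 was 0.0764, and the call of Sparc ended in 12 of the 16 fits without 1 array (0.0532 to 0.0965). Medulla and adipocyte markers, described below, moved in the same direction as most called WNT, capsule and matrix genes, and their part in these results was not tested. The covariate fits are no such test, since the marker means themselves differed between the groups.

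In 112 of the 2368 genes the knockout effect was the larger one in males, 87 of them with a higher and 25 with a lower level in KO males. Rtl4, derived from a retrotransposon Gag gene, was at 7.63, 7.86, 8.0 and 7.58 in WT females, 7.83, 6.94, 7.14 and 7.03 in KO females, 7.46, 6.95, 7.20 and 7.36 in WT males and 8.32, 8.11, 8.48 and 8.16 in KO males. KO males lay above all other arrays, whereas 3 of 4 KO females lay below the WT females, and the difference was -1.56 ± 0.24 (adjusted p 0.00102). Inha, the inhibin alpha subunit, was at 6.97, 6.94, 7.11 and 7.11 in WT females, 6.77, 6.92, 7.08 and 7.05 in KO females, 7.26, 7.27, 7.37 and 7.61 in WT males and 8.22, 8.34, 8.03 and 8.0 in KO males. The female groups overlapped, the male groups did not, and the difference was -0.85 ± 0.14 (adjusted p 0.00139). Bmp4, a secreted growth factor, was at 7.44, 7.41, 7.39 and 7.30 in WT females, 7.46, 7.18, 7.53 and 7.47 in KO females, 7.05, 7.10, 6.99 and 6.97 in WT males and 7.75, 7.75, 7.59 and 7.43 in KO males. WT males were the low group here, and the difference was -0.58 ± 0.12 (adjusted p 0.00495), from 0.02 ± 0.08 in females and 0.61 ± 0.08 in males.

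Inha, Bmp4 and Rtl4 belong to the 18 genes called with the knockout in intact males, of which 10 also differed between the sexes, beside 16.4% of all genes. The male effect is a term of that difference, so this overlap is partly built in. Efemp1, a fibulin of the matrix, had a rise in males of 0.51 and a difference of -0.59 ± 0.13 (adjusted p 0.00774). Zbtb16, a transcription factor induced by glucocorticoids, rose by 0.81 in males and differed by -0.65 ± 0.20 (adjusted p 0.0354), a call that ended in 9 of the 16 fits without 1 array (0.0523 to 0.0738). Slc45a3, a transporter gene, rose by 0.61 in males and differed by -0.50 ± 0.15 (adjusted p 0.0375, or 0.055 with all 24 arrays), a call that ended in 10 of the 16 fits (0.0515 to 0.0783). The other 4 were lower in KO of both sexes and more so in females. Of these Khdrbs3, an RNA-binding protein gene, fell by 1.23 in females and 0.48 in males (difference -0.75 ± 0.11, adjusted p 0.00074), and Ckap4, of the endoplasmic reticulum, by 0.65 and 0.32 (difference -0.33 ± 0.08, adjusted p 0.0133, or 0.238 with all 24 arrays). Among the 8 with no call for the difference, Mboat1, a lysophospholipid acyltransferase, was at -1.0 ± 0.14 in females and -0.92 ± 0.14 in males, and Prrg3 at 0.93 ± 0.17 and 0.99 ± 0.17. G6pc, the catalytic subunit of glucose-6-phosphatase, was at 1.42 ± 0.39 and 2.35 ± 0.39, with a difference of -0.93 ± 0.55 (adjusted p 0.271). Slc6a5, a glycine transporter, was at 1.11 ± 0.24 and 1.5 ± 0.24, and Kcnd2, a potassium channel, at -2.13 ± 0.20 and -1.31 ± 0.20 (difference -0.81 ± 0.28, adjusted p 0.0618, or 0.0129 to 0.0459 without WT female 1, KO female 2 or KO male 1).

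Akr1c18, the enzyme that inactivates progesterone and a marker of the X-zone, had the largest male effect and no call for the difference. It was at 10.91, 11.47, 9.91 and 12.18 in WT females, 12.86, 12.77, 12.75 and 12.79 in KO females, 4.51, 4.26, 4.10 and 4.19 in WT males and 10.90, 6.57, 6.36 and 10.96 in KO males. WT males were under the filter level, KO males formed a high and a low pair, and KO females lay close together at the top of the scale. The difference was -2.76 ± 1.22 (adjusted p 0.135, or 0.047 without KO male 3). The other 3 X-zone genes tested had no limma call either, with 1 of the 4 at an unadjusted p under 0.05 and a list median of -0.13.

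**Figure D4:**
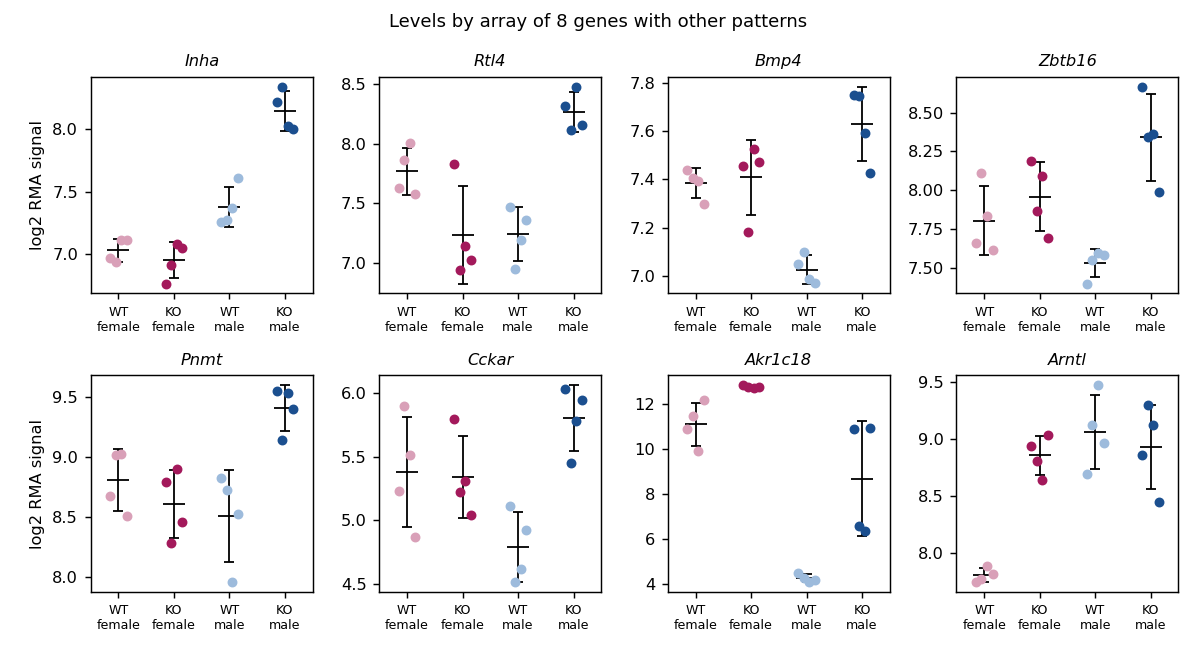
Log2 signal of each array (points) with the group mean and SD (bars) for 8 genes that do not follow the pattern of a change in KO females alone. In Inha, Rtl4, Bmp4, Zbtb16, Pnmt and Cckar the KO males are the highest group, in Akr1c18 the WT males are lowest with KO males in a high and a low pair, and in Arntl the WT females are the low group.

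Of 14 genes of the circadian clock tested, 4 were higher and 1 was lower in females (median -0.22), beside 7.18% and 9.26% of all genes. Without 1 array 2 to 4 were higher and 0 to 4 lower, with 2 higher and 4 lower without KO male 2. Arntl, the clock activator BMAL1, was at 7.75, 7.78, 7.89 and 7.81 in WT females, 8.94, 8.81, 8.65 and 9.04 in KO females, 8.70, 9.12, 9.47 and 8.97 in WT males and 8.86, 9.30, 9.13 and 8.45 in KO males. WT females alone were low, and the KO females overlapped with both male groups. The difference was 1.18 ± 0.24 (adjusted p 0.0047), and the sex difference was -1.26 in WT and -0.07 in KO. Npas2, a gene of the same activating arm, had like values (1.08 ± 0.24, adjusted p 0.00784, sex difference -1.10 in WT and -0.02 in KO). Bhlhe40 (1.07 ± 0.34) and Cry1 (0.60 ± 0.18) were higher and Per3 was lower (-0.77 ± 0.22), with adjusted p-values of 0.0415, 0.0336 and 0.0275. Those calls ended in 11 (0.0587 to 0.0856), 9 (0.0533 to 0.0705) and 2 (WT female 1 and WT male 2, 0.0526 and 0.0534) of the 16 fits without 1 array. The hour of dissection is not given in the labels, and its part in these values was not tested.

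Of 12 genes of the glucocorticoid response, 2 were higher and 2 were lower in females (median 0.09), beside 7.18% and 9.26% of all genes. Lcn2, lipocalin 2, was higher (1.21 ± 0.21, adjusted p 0.00184, or 0.0712 with all 24 arrays), and so was the metallothionein Mt1 (0.51 ± 0.15, adjusted p 0.0348). Zbtb16 and Klf9 (-0.38 ± 0.11, adjusted p 0.0349) were lower. The calls of Mt1 and Klf9 ended in 7 (0.0517 to 0.0729) and 10 (0.0521 to 0.0736) of the 16 fits. Of 13 genes of glutathione and oxidative stress defence, 4 were higher in females (median 0.32). They were Srxn1, sulfiredoxin (0.74 ± 0.14, adjusted p 0.00378), Txnrd1, thioredoxin reductase (0.66 ± 0.10, adjusted p 0.000857), Gpx1 (0.34 ± 0.09, adjusted p 0.0166) and Sod2 (0.35 ± 0.11, adjusted p 0.0383). The call of Sod2 ended in 10 of the 16 fits (0.0554 to 0.0761), and with all 24 arrays the adjusted p of Gpx1 was 0.0574. Of 17 proliferation genes, only the mitotic kinase Ttk was called (1.24 ± 0.22, adjusted p 0.00237), beside 16.4% of all genes, and the list median was 0.05. Ttk was at 4.83 to 5.32 in WT females and 6.11 to 6.94 in KO females. In males it was at 4.65 to 4.99 in WT and 4.97 to 5.17 in KO. Outside KO females these levels lie near or under the filter level of 5, so the size of its difference is uncertain.

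None of 7 hormone receptor genes was called by limma, with 4 at an unadjusted p under 0.05, and all 7 differences were negative (median -0.37). Ghr, the growth hormone receptor, was at -0.83 ± 0.29 (adjusted p 0.0622, or 0.00974 and 0.0223 without KO male 4 or WT female 4) and Esr1, an oestrogen receptor, at -0.83 ± 0.35 (adjusted p 0.115, or 0.0341 without KO female 4). Of 10 inhibin, activin and gonadal-like genes, Inha was the only call, beside 16.4% of all genes. Of 4 sex chromosome genes, Xist and 3 of the Y chromosome, limma called 0, with 0 at an unadjusted p under 0.05.

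Markers of the medulla differed almost as a whole list. Of 13 chromaffin genes, 12 were lower in females and none was higher (median difference -0.83), beside 9.26% and 7.18% of all genes. Their median knockout effect was -0.57 in females and 0.23 in males. Slc18a1, a vesicular monoamine transporter, was at 8.08, 8.47, 8.72 and 8.07 in WT females, 7.74, 7.20, 7.56 and 7.11 in KO females, 8.19, 8.86, 8.27 and 8.71 in WT males and 8.49, 8.96, 8.91 and 8.69 in KO males. The female groups did not overlap and the male groups did, and the difference was -1.19 ± 0.27 (adjusted p 0.00784). Pnmt, which turns noradrenaline into adrenaline, was at 8.68, 9.02, 9.03 and 8.51 in WT females, 8.79, 8.29, 8.90 and 8.46 in KO females, 8.83, 8.73, 7.96 and 8.52 in WT males and 9.56, 9.14, 9.54 and 9.41 in KO males. Here the male groups were apart and the female groups overlapped, and the difference was -1.10 ± 0.26 (adjusted p 0.011, or 0.0589 with all 24 arrays). Npy, a neuropeptide of chromaffin cells, differed by -1.10 ± 0.27 (adjusted p 0.0142). The exception, Snap25, was at -0.83 ± 0.29 (adjusted p 0.0598, or 0.032 to 0.047 without KO female 1, KO female 3, WT male 4 or KO male 1), and without 1 array the count of the list was 8 to 13.

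Adipocyte markers were lower in females in 4 of 9, beside 9.26% of all genes, with none higher (median -1.46). Their mean level was 8.51 to 9.85 in WT females, 7.28 to 8.03 in KO females, 7.88 to 9.77 in WT males and 7.44 to 9.21 in KO males, so the female groups did not overlap and the male groups did. With that mean as a covariate 1579 genes were called, and all 2368 genes kept their direction at a median of 0.985 times the size. That fit ended 21 of the 95 calls among the genes described here, Car3, Car5b, Mmp2 and Fdps among them. Of 11 endothelial markers 2 were lower (median -0.39), beside 9.26% of all genes. That count was 1 without WT female 1, KO female 2, KO female 4 or KO male 3, 4 without KO female 3 and 6 without KO male 4. These were Cdh5, an adhesion protein of endothelial junctions (-0.69 ± 0.19, adjusted p 0.0204), and Tek, the angiopoietin receptor (-0.52 ± 0.15, adjusted p 0.0252), whose call ended in 4 of the 16 fits (0.0512 to 0.0538).

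Markers of immune cells did not move one way. Of 14 macrophage markers 2 were higher in females (median 0.48), beside 7.18% of all genes. They were Cd163, a scavenger receptor (1.12 ± 0.34, adjusted p 0.0371), and C1qa, of complement (0.91 ± 0.26, adjusted p 0.0263). The call of Cd163 ended in 13 of the 16 fits (0.0537 to 0.0738) and that of C1qa without WT female 1 or KO male 2 (0.0535 and 0.0519). The macrophage genes Vsig4 and Chil3 described above are not members of this list. None of 5 MHC class II genes was called by limma, with 4 at an unadjusted p under 0.05 (median -0.52), although H2-Ab1 (-1.28 ± 0.46, adjusted p 0.0701) and H2-Aa (-1.12 ± 0.41, adjusted p 0.0756) had adjusted p-values of 0.00804 and 0.00782 without KO female 1. Of 3 mast cell genes that passed the filter, Hdc, histidine decarboxylase, was at 5.99, 5.96, 6.48 and 6.87 in WT females, 8.82, 8.48, 7.97 and 8.82 in KO females, 6.64, 6.71, 6.75 and 6.62 in WT males and 6.52, 6.55, 6.11 and 6.14 in KO males. KO females were high and KO males the lowest of the male arrays, and the difference was 2.54 ± 0.29 (adjusted p 0.000168). Cpa3, the mast cell carboxypeptidase, moved the other way (-1.52 ± 0.36, adjusted p 0.0113). Of 2 lymphocyte genes that passed the filter limma called 0, with 0 at an unadjusted p under 0.05. Of 3 genes of Schwann cells and nerve 1 was lower, beside 9.26% of all genes. It was Ncam1, a neural adhesion protein (-0.71 ± 0.18, adjusted p 0.0173).

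**Figure D5:**
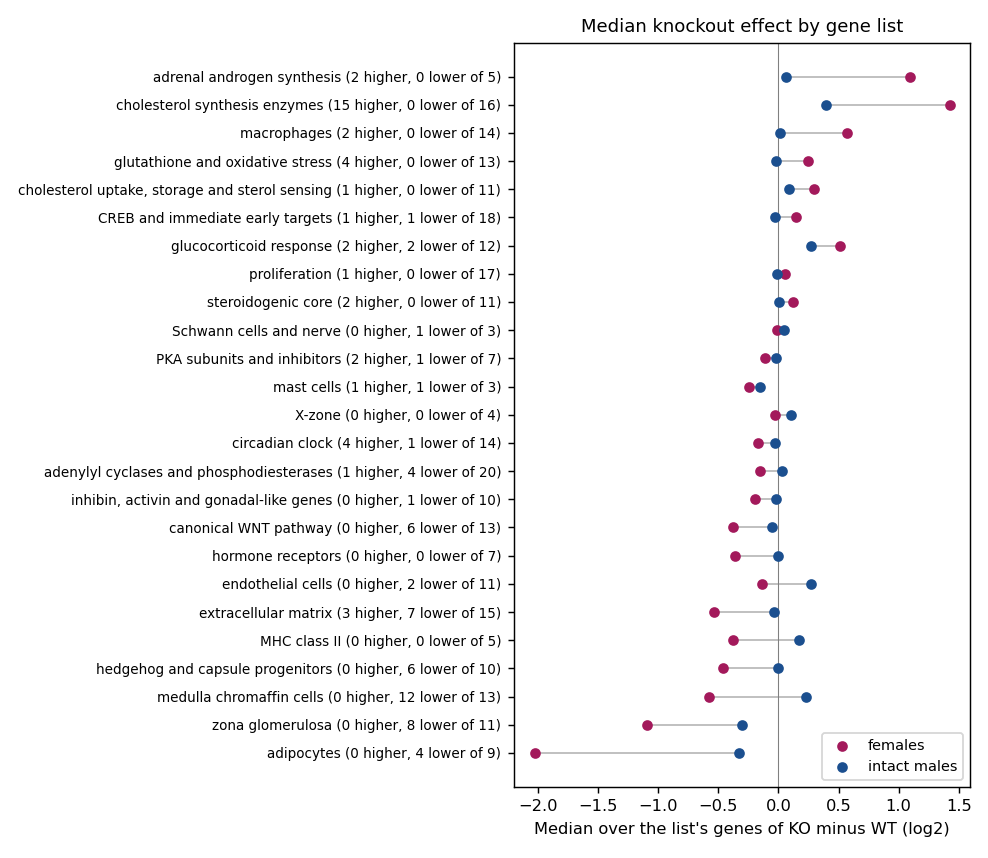
Median knockout effect (log2, KO minus WT) over the tested genes of each list in females and in intact males, with the number of genes called higher or lower in females in brackets. The widest gap on the lower side is that of adipocyte markers (-2.03 in females and -0.33 in males). On the upper side the widest are those of androgen synthesis (1.09 and 0.06) and cholesterol synthesis (1.42 and 0.39).

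The called genes were spread over the chromosomes. Over the autosomes and the X chromosome the share called was lowest on chromosome 7 (12.3%) and highest on the X chromosome (107 of 470, 22.8%), beside 16.4% of all genes. Because the controls differ in Cre, the genes next to its locus were counted as well. Of the 40 genes that neighbour Cyp11b2, 20 on each side, 6 were called (15%), among them Ly6d, Ly6e (-0.63) and Kcnk9. The call of Ly6e ended in 7 of the 16 fits without 1 array (adjusted p 0.0526 to 0.061). Of the 40 around Prkar1a 8 were called (20%), Axin2 included.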

How the data were processed

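The authors deposited 1 table of log2 signals of 32202 probe sets on 24 Affymetrix mouse gene arrays, made from biotinylated cDNA per the labels' protocols and summarised by RMA per the submitters' processing notes. Which RMA software was used is not stated there, and the arrays' number limits the precision. Of the probe sets, 22943 carry 1 gene symbol, 1731 several and 7528 none, and only the first were used. Each of 21957 genes was represented by the probe set with the highest mean over 24 arrays (828 have several), and the 14411 genes with a log2 signal over 5 in at least 4 arrays were tested.

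Here 1 limma model (lmFit and eBayes, limma 3.58.1, R 4.3.3) of the 4 group means over 16 arrays (12 residual and 3.44 prior degrees of freedom) gave the difference of knockout effects, the effects within each sex and the sex differences within each genotype. A gene counted as called where its p, adjusted by Benjamini and Hochberg over all genes tested, was under 0.05, and the procedure was tested on simulated data. Errors are standard errors from limma. The table has no missing values, and array medians were 5.20 to 5.29. Arrays of a group correlated at 0.9885 to 0.9948 across probe sets. WT male 1 and KO males 1 and 4 stood apart from the other males on the first principal component.

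The comparison and the 28 gene lists (337 symbols, 302 matched, 278 tested) were chosen with earlier results of these data known. Named genes are Prkar1a, Cyp11b2, the 12 largest called differences in each direction, leaving out predicted symbols, and from each list at most 4 members, those that differed most. The genes called in intact males, those whose sex difference turned, Prkar2a, Pde2a, Pde3a, Dhcr7, Hmgcs1, Cyp11a1, Star, Chga, Cacna1h, Dab2, Agtr1a, Oca2, Klf9, Col5a1, Col6a1, Sparc, Gpx1, Sod2, Cry1, Snap25, Rtl4, Cckar and Ly6e were named after their values were seen. Erythrocyte markers matched no gene. Same-numbered arrays of different groups did not deviate together (correlations of -0.168 to 0.16), so numbers were not used to pair mice. Alternatives were all 24 arrays, 3 filters, 2 normalizations, the mean of all probe sets of a gene, array weights, another variance model, the replicate number as a block, medulla or adipocyte marker means as a covariate and leaving out each array. Promoter sequences are RefSeq's (GRCm38.p6), matched by symbol, with 11195 of 14411 genes matched.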

Additional observations from a re-analysis of the deposited data

Results flagged for a closer look

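The knockout effect differed between females and intact males, by limma's test of the difference itself, in 95 of the 115 genes described, and each log2 difference (females minus intact males) follows in brackets. These genes were described partly because they differed, so their number has no meaning of its own. They include Bpifc, Vsig4, Spink8, Olfr810, Aass and Chil3, which are given with no test. The widest gaps upwards, apart from the genes given with no test, were those of Sv2c (3.82), Ptprz1 (3.79), St8sia5 (3.69), Fetub (3.28), Tgm3 (3.27) and Elapor1 (2.78). Next came Megf10 (2.66), Hdc (2.54) and Rhcg (2.41). Gaps of moderate size were found in Paqr5 (1.87), Hsd17b7 (1.77), Fdps (1.72), Sqle (1.66), Lss (1.58), Cyp17a1 (1.37) and Ttk (1.24). The same range held Lcn2 (1.21), Arntl (1.18), Cd163 (1.12), Mrap (1.11), Npas2 (1.08), Bhlhe40 (1.07) and Cyb5a (1.03). Of these, Cyp17a1 and Ttk lay near or under the filter level of 5 in the WT arrays, so their sizes are uncertain. Smaller gaps upwards were found in Dhcr7 (0.96), C1qa (0.91), Fdx1 (0.76), Scarb1 (0.76), Srxn1 (0.74), Pde8a (0.71) and Ier3 (0.67). Also in this range were Txnrd1 (0.66), Cry1 (0.60), Col5a1 (0.56), Col6a1 (0.52), Mt1 (0.51), Sod2 (0.35) and Prkaca (0.35). The smallest were those of Gpx1 (0.34), Prkar2a (0.33) and Sparc (0.30). Fitted differences of Bpifc (3.98), Olfr810 (3.18), Spink8 (3.48) and Vsig4 (2.78) have no measurable size or order, since every WT array had them below 5, where the filter was set. Nor have those of Chil3 (2.76) and Aass (2.74), which were below 5 in every WT male and in most WT females.

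The widest gaps downwards were those of Lgals12 (-2.37), Retn (-2.30), Car5b (-2.18), Vsnl1 (-2.16), Ly6d (-2.10), Car3 (-2.09) and Tenm3 (-1.84). Next came Mmp2 (-1.78), Sparcl1 (-1.74), Adipoq (-1.73), Klb (-1.63), Lum (-1.62), Rtl4 (-1.56) and Cpa3 (-1.52). Then followed Kcnk9 (-1.52). Intermediate gaps downwards were those of Pdgfra (-1.36), Rspo3 (-1.22), Slc18a1 (-1.19), Cacna1h (-1.16), Col3a1 (-1.16), Lgr5 (-1.12) and Pnmt (-1.10). Of like size were Npy (-1.10), Postn (-1.06), Cckar (-1.05), Adcy6 (-1.04) and Tcf21 (-0.91). Smaller gaps downwards were found in Dab2 (-0.90), Inha (-0.85), Nr4a3 (-0.82), Agtr1a (-0.80), Per3 (-0.77), Khdrbs3 (-0.75) and Ptch1 (-0.72). Others of this size were Ncam1 (-0.71), Adcy2 (-0.70), Cdh5 (-0.69), Prkar1b (-0.67), Zbtb16 (-0.65), Pde2a (-0.65) and Axin2 (-0.63). Below these came Ly6e (-0.63), Efemp1 (-0.59), Bmp4 (-0.58), Pde3a (-0.53), Tek (-0.52), Slc45a3 (-0.50) and Klf9 (-0.38). The narrowest gaps included Ckap4 (-0.33).

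In 31 cases the highest or lowest of 4 arrays of a group lay far from the other 3, by Dixon's criterion at the 95% level, which by chance picks out about 5% of groups. They came from 460 groups of genes' values (25 cases) and 108 groups of list means (6 cases), so their number was close to that share. Each is given as the array's log2 signal and the range of the other 3. KO female 1 had Car5b at 7.41 against 6.44 to 6.56 and Efemp1 at 9.42 against 9.12 to 9.16. KO female 3 had Scarb1 at 12.54 against 12.77 to 12.78 and Sod2 at 10.43 against 10.58 to 10.60. KO male 1 had Chil3 at 6.14 against 3.91 to 4.29, G6pc at 8.81 against 6.98 to 7.11 and Kcnd2 at 4.90 against 5.60 to 5.74. KO male 1 also had Kcnk9 at 9.02 against 10.03 to 10.23 and Mrap at 10.03 against 9.85 to 9.87. KO male 4 had Car3 at 9.61 against 11.26 to 11.55 and the mean of the endothelial cells list at 8.47 against 8.70 to 8.74. WT female 1 had Cyp11b2 at 9.71 against 10.97 to 11.11 and H2-Ab1 at 9.12 against 9.71 to 9.82. WT female 2 had St8sia5 at 4.24 against 4.94 to 5.03. WT female 3 had Col3a1 at 7.90 against 7.57 to 7.62, Cpa3 at 7.6 against 6.48 to 6.62 and the mean of the circadian clock list at 7.71 against 7.78 to 7.79. WT female 4 had Aass at 5.26 against 4.41 to 4.50, Adipoq at 7.90 against 8.65 to 8.74 and the mean of the lymphocytes list at 5.38 against 5.0 to 5.04. WT female 4 also had Sfrp1 at 8.23 against 8.02 to 8.05. WT male 1 had Agtr1a at 9.76 against 10.05 to 10.09, the mean of the endothelial cells list at 8.09 against 8.50 to 8.56 and the mean of the steroidogenic core list at 11.05 against 10.69 to 10.74. WT male 1 also had Ly6d at 7.80 against 9.28 to 9.49 and Sparc at 11.32 against 11.01 to 11.04. WT male 3 had Dhcr7 at 10.56 against 10.80 to 10.83, Megf10 at 6.90 against 7.96 to 8.10 and Ttk at 4.65 against 4.94 to 4.99. WT male 4 had Cacna1h at 10.36 against 10.14 to 10.16 and the mean of the mast cells list at 6.09 against 6.31 to 6.35.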

How the results depend on the processing

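Of the 95 described genes that were called, 11 kept their call in every alternative, among them Bpifc and Vsig4, which are given with no test. The other 84 lost it in at least 1, each of them when the mean of the medulla markers was a covariate. That fit called 65 genes, 49 higher and 16 lower, with 1752 at an unadjusted p under 0.05, and Ncam1 turned to 0.0097 in it. With the adipocyte marker mean 686 genes were called higher and 893 lower, and 74 of the 95 calls were kept. The cause was not tested. Without 1 array 1692 to 2583 genes were called, 794 to 1186 higher and 878 to 1487 lower. Of the lists, CREB targets then had 1 to 3 lower (3 without WT male 4) and 1 to 3 higher (3 without WT male 3 or KO male 1), inhibin genes 1 to 3 lower (3 without WT female 2) and macrophage markers 0 to 4 higher (4 without KO male 1). The fit with the replicate block called 2035 genes and kept 90 of the 95 calls, and the numbers did not pair the arrays (correlations of -0.168 to 0.16). All 24 arrays in the fit gave 2302 calls and kept 81 of the 95. The other filters, normalizations, probe set rule and variance models gave 1922 to 3136 calls. With 4 arrays a group, small differences can be missed.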
